A study of Mus musculus with 8 samples.

Results

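The genes described here are 85 mouse zinc finger protein genes (Zfp followed by a number) that had no region of open chromatin at either gene end in control embryonic stem cells. They were chosen by the measured control list: a gene qualified when no control region came within 1000 bp of its annotated start or end. RefSeq lists 367 such Zfp genes among 21883 protein-coding genes. Of these, 275 had a control region and 92 did not, and 7 of the 92 belong to 9 named genes that the rule leaves out. The 85 genes lie on 16 chromosomes.

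Open chromatin was mapped by ATAC-seq, which sequences the DNA that a transposase can reach and cut, in 4 groups of mouse embryonic stem cells with 2 replicates each. The Ubc9-depleted cells were of the v6.5 line with a doxycycline-controlled TET-OFF system and had received the drug for 72 hours to deplete Ubc9, the enzyme that attaches the small protein SUMO to its targets. The Ubc9 control cells were of the same line, and since the drug is given for the depleted cells only, drug and depletion cannot be told apart. The H1 triple-knockout cells (H1.2-/-H1.3-/-H1.4-/-) lacked 3 linker histones and were set beside wild-type cells, both lines being described only by reference to an earlier publication. All 4 groups had been kept in 2i/LIF, a medium that holds stem cells in a naive state. Each group has 1 deposited list of regions made from both of its replicates, so the spread between replicates is unknown and the comparisons are counts without tests. A gene without a region in a list is one where no region passed the peak caller there. Shares carry exact (Clopper-Pearson) 95% intervals, which cover counting error only.

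Zfp genes mostly encode proteins with arrays of C2H2 zinc fingers, which bind DNA. Many also carry a KRAB domain, through which Trim28 and the histone methyltransferase Setdb1 are brought to the bound site, often a retrotransposon or an imprinted gene, to silence it. Such genes arose by tandem duplication and stand in clusters of near copies, and SUMO takes part in this silencing.

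Marker genes were checked in the same lists. Over all 21883 protein-coding genes, 53.1%, 54.3%, 51.7% and 51.4% had a gene-end region in the control, depleted, wild-type and triple-knockout lists. A region at a start inside a gene is not counted, so a gene without a gene-end region may still be open. Of 12 genes for repeat silencing by KRAB proteins, Trim28 and Setdb1 among them, 11 had a gene-end region in each of the 4 lists, and Dnmt1 had none in any. Of 10 stem cell markers, 8 had one in the control list, 7 in the depleted list and 8 in each H1 list, with Pou5f1 and Esrrb at 0 throughout. Of 7 markers of the 2-cell-like state, 6 had one in the depleted list and 0 in the other 3, and the part of that state in the depleted values below was not tested. Of 6 fibroblast and feeder markers, 1, 1, 2 and 1 had one in the control, depleted, wild-type and triple-knockout lists. In the same order the counts were 3, 1, 3 and 1 of 4 trophectoderm markers, 2, 1, 1 and 1 of 4 primitive endoderm markers, and 2, 3, 2 and 3 of 4 neural markers.

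The letters just before 7 of the gene starts are shown. At 21 of the 85 genes a list other than control held a region at a start of RefSeq's promoter table, and control held none. The 7 come from these and lie at the outermost annotated end, taken by peak score in the depleted list. Zfp777, Zfp27 and Zfp334, whose starts lie further inside, were passed over. Each is the 250 bases upstream of a RefSeq start on GRCm38.p6 (mm10), read 5′ to 3′ in the direction of the gene. Capitals mark matches on either strand to the CCAAT box, the Sp-type GC box GGGCGG, the ETS-type motif CCGGAAG, the cyclic AMP element TGACGTCA, the NRF1-type motif GCGCATGC, the TATA box TATAAA or the YY1-type motif ATGGCGG. The first 4 starts had a region in at least 2 of the other 3 lists, at Zfp101 (chr17:33394638-33394887, minus strand), Zfp872 (chr9:22187916-22188165, plus strand), Zfp970 (chr2:177464492-177464741, plus strand) and Zfp967 (chr2:176520754-176521003, plus strand).
Zfp101: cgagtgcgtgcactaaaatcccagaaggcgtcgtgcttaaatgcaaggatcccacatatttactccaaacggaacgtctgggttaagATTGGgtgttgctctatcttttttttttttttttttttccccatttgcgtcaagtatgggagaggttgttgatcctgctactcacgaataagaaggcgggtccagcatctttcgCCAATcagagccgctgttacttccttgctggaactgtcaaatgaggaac
Zfp872: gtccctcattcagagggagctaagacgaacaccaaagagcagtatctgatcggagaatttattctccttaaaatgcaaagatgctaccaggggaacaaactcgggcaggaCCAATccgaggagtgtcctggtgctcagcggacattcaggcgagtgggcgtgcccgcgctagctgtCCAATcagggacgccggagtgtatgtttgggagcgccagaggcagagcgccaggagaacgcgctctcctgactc
Zfp970: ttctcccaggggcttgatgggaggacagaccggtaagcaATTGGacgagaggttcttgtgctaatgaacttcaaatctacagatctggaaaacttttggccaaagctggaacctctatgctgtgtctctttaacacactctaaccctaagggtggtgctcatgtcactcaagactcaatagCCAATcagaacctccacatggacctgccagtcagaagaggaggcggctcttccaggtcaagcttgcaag
Zfp967: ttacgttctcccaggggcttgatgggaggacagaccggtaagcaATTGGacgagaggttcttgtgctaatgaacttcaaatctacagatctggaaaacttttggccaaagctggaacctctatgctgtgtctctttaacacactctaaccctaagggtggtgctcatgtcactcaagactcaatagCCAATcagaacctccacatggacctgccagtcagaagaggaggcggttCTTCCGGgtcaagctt
The next 3 starts had a region in the depleted list only (that of Zfp455 begins 15 bp inside the gene, past the bases shown), at Zfp523 (chr17:28176946-28177195, plus strand), Zfp3 (chr11:70764197-70764446, plus strand) and Zfp455 (chr13:67194256-67194505, plus strand).
Zfp523: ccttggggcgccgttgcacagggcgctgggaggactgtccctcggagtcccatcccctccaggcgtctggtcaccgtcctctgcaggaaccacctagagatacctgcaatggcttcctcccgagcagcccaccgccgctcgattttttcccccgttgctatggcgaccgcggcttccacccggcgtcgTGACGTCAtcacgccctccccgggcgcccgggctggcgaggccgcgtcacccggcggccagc
Zfp3: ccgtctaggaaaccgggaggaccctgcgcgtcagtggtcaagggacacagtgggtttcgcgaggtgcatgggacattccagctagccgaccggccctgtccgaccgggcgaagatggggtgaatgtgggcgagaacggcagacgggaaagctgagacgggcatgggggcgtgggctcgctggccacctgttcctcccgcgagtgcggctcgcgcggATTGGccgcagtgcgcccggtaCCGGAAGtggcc
Zfp455: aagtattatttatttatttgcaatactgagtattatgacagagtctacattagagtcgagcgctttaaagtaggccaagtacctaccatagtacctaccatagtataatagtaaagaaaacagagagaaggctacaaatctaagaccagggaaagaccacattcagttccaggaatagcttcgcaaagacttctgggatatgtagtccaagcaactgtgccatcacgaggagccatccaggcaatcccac

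Each of the first 4 sequences holds 2 matches to CCAAT or its reverse, and Zfp967 also holds 1 to CCGGAAG. Among the next 3, Zfp523 holds 1 TGACGTCA, Zfp3 holds 1 CCAAT and 1 CCGGAAG, and Zfp455 holds none of the 7 motifs. Zfp579, next by score among starts with a depleted region only, is not shown. It holds 1 GGGCGG and 1 CCGGAAG, with a GC content of 68.8%. The sequences shown are thus a pick, and nothing is read from their differences. The GC content of the upstream bases was 70.0% at Zfp523 and 68.0% at Zfp3, and between 40.8% (Zfp455) and 56.4% (Zfp872) at the other 5 shown. The sequences of Zfp967 and Zfp970, genes 0.931 Mb apart, are near copies: 243 of 245 aligned bases (99.2%) were identical, with 227 in 1 unbroken run. Short reads from such copies may not be told apart, and no source used here gives how reads with several matches were treated.

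In the H1 lists, the Zfp genes without a control region had a gene-end region more often than protein-coding genes without a control region did in general. In the depleted list 23 of 85 had one (27.1%, interval 18 to 37.8), beside 1158 of the 10268 protein-coding genes without a control region (11.3%). Because the control list chose the genes, this first share is a description of the same contrast and nothing is read from it. Each of the left-out genes without a control region had a depleted region, so leaving them out lowers the depleted share. The 10268 genes still include them. The limit that chose the genes did not use the H1 lists, though some of the left-out genes without a control region had an H1 region. The H1 wild-type list held a region at 20 of 85 (23.5%, interval 15.0 to 34), beside 8.42% of the 10268. The triple-knockout list held one at 19 of 85 (22.4%, interval 14.0 to 32.7), beside 8.49%. Both H1 intervals lie above the share of all such genes. Neighbouring genes may share reads and surroundings, which these intervals do not take into account. Leaving out the olfactory, vomeronasal and trace amine receptor genes, which rarely had a region, moved the 3 shares of the remaining 8819 genes to 13.0%, 9.74% and 9.77%. The comparison in the bar plot also shows how far these genes stood from the other 275 Zfp genes, of which 94.9%, 92.7% and 92.0% had a region in the same 3 lists.

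**Figure D1:**
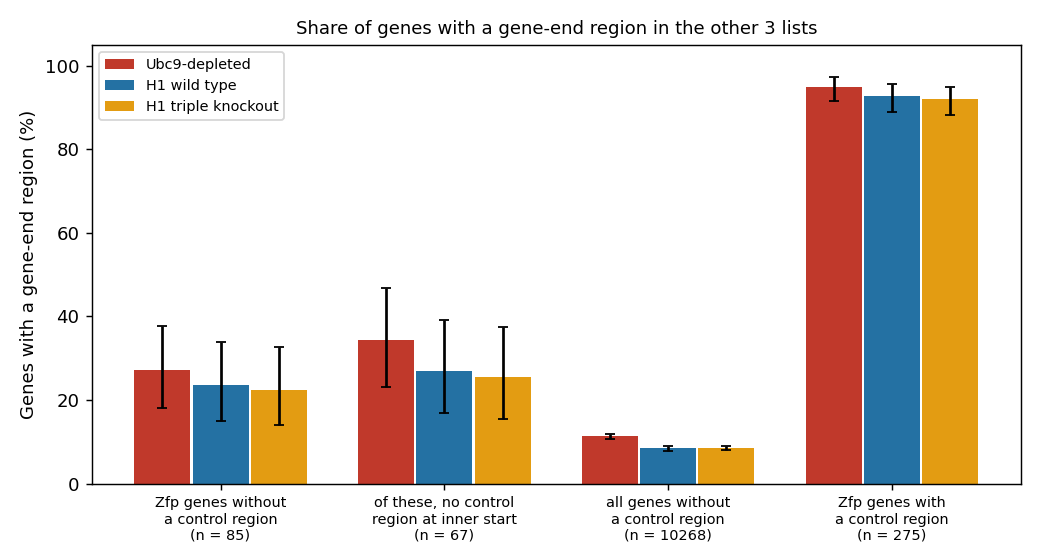
Bars give the share of genes (%) with a gene-end region in the Ubc9-depleted, H1 wild-type and H1 triple-knockout lists, with exact 95% binomial intervals as error bars, for 4 sets of genes defined by the control list. The 85 Zfp genes sit between 22.4% and 27.1%, the 10268 genes without a control region between 8.42% and 11.3%, and the Zfp genes with a control region above 90%.

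The triple knockout was not separated from wild type at these genes. A region in the triple-knockout list only was found at 6 members (7.06%), beside 4.28% of the 10268 genes, and one in the wild-type list only at 7 (8.24%), beside 4.21%. Both lists held one at 13 members (15.3%), beside 4.22%. The order of the triple-knockout only and wild-type only counts turned with the settings. With a score of at least 100 it was 13 triple-knockout only against 7 wild-type only, and with equal numbers of top-scoring regions 6 against 10. Over all 367 Zfp genes, left-out ones included, it was 18 against 19. Of these, 10 and 12 were at genes with a control region. The order at genes without one thus also depends on the left-out genes.

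By list, 47 of the 85 genes (55.3%, interval 44.1 to 66.1) had no gene-end region in any list, beside 80.6% of the 10268 genes. A further 12 had one in depleted cells only (14.1%, beside 6.67% of the 10268 genes) and 5 in all 3 lists (5.88%, beside 1.7%). An H1 region without a depleted one was found at 15 (17.6%, beside 8.09%). Of these, 8 had one in both H1 lists, 4 in wild type only and 3 in the triple knockout only. The last 6 had a depleted region with 1 H1 region, 3 with each list. Among the 26 members with any H1 region, 11 (42.3%) also had a depleted region, and among the other 59, 12 (20.3%) did. The same shares over all 10268 genes were 36.3% and 7.64%. The control list chose the genes, so nothing is read from the shares with a depleted region.

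Where the direction of the gene is known, most of the regions lay at the outermost annotated end on its start side, here called the start. RefSeq's promoter table gave a strand for 65 of the 85. Of the 23 depleted regions, 14 were at the start, 0 at the far end and 9 at genes of unknown direction. The wild-type list had 14, 1 and 5 members in the same classes and the triple-knockout list 16, 1 and 2, with the far-end cases at Zfp341 and Zfp217. At Zfp541, Zfp697, Zfp981 and Zfp993 the regions counted at the start did not overlap the start that the promoter table gives. Nor did the triple-knockout region of Zfp777. None of the members' gene-end regions overlapped a control region, and none lay within 1000 bp of an end of another protein-coding gene. Of the 275 other Zfp genes, 42 shared their control region with such an end. The 2 counts use different lists and genes split by the control list, so they are not compared. The share over all genes without a control region was not computed. Where 2 lists both held a region at a member, it was mostly the same place: the regions overlapped at 12 of 13 members for wild type and triple knockout, 8 of 8 for depleted and wild type, and 7 of 8 for depleted and triple knockout. Zfp981 and Zfp248 were the exceptions.

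Regions carry the score that the authors deposited, read as minus 10 times log10 of the peak caller's p, and it ranks regions within a list only. The lowest score of a list was between 50.0 and 50.3. The depleted regions at these genes scored between 64.9 and 304.9 with a median of 136.7, beside 128.4 for that whole list, and their median width of 606 bp stood beside 431 bp. The wild-type regions were low for their list, with a median of 98.02 beside 132.1 and 10 of 20 members at 100 or more. The triple-knockout regions had a median of 137.3 beside 138.8. The score plot shows every gene with a region.

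**Figure D2:**
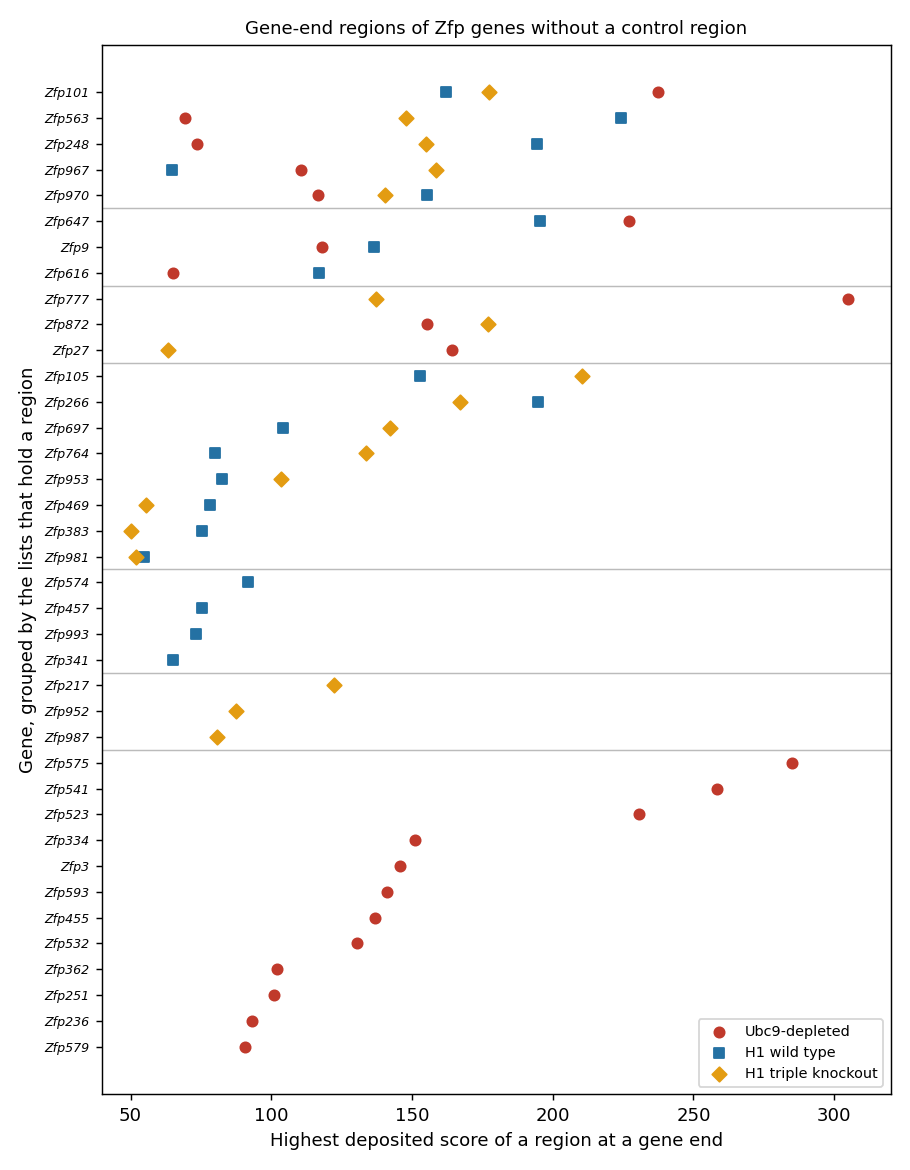
Each row is 1 of the 38 Zfp genes without a control region that had a gene-end region in another list, and each point is the highest deposited score (no unit) in 1 list, with no control point because the genes were chosen for having none. Lines separate genes by which lists hold a region; the top 5 had a region in all 3 lists and the bottom 12 in the depleted list only. Scores rank regions within a list and are not compared between lists.

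In all 3 lists a region was found at 5 genes, among them both near copies shown above. Zfp101 scored 237.4 in depleted, 162.2 in wild-type and 177.3 in triple-knockout cells, and its regions, such as chr17:33394463-33394835 in depleted cells, covered the annotated start. Zfp563, on the same chromosome, scored 69.2, 224.4 and 147.9. It stood low in the depleted list, above 9.69% of its regions, and high in the wild-type list, above 75.7%. Zfp970 scored 116.7, 155.3 and 140.4, and its near copy Zfp967 scored 110.5, 64.6 and 158.5. The 5th gene, Zfp248 on chromosome 6, scored 73.6, 194.2 and 155.0, and its depleted region (chr6:118455399-118455603) lay beside its triple-knockout region (chr6:118455037-118455319) with no overlap.

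The 12 genes with a depleted region only had scores from 90.7 to 284.9, and 10 of the 12 reached 100. The highest was Zfp575 on chromosome 7 (284.9), followed by Zfp541 (258.4), which acts in meiosis of male germ cells and whose region (chr7:16061335-16061954) covered the outermost annotated end. The start that the promoter table gives for it lies inside the gene and had no region in any list. Zfp523, the mouse counterpart of ZNF76, scored 230.7, with its region (chr17:28177039-28177644) over the sequence shown above and into the gene. Then came Zfp334 (151.1), Zfp3 (145.6), Zfp593, a small protein of ribosome assembly (141.0), Zfp455 (136.7) and Zfp532 (130.6). Zfp362, Zfp251, Zfp236 and Zfp579 scored 102.0, 100.9, 93.2 and 90.7. Their regions were 329 to 1110 bp wide, with a median of 613 bp.

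Regions of 1 H1 list only were found at 13 genes, 6 of which also had a depleted region. In the triple knockout only, Zfp872 scored 176.9 (155.5 in depleted cells), Zfp777 137.3 (304.9, the highest depleted gene-end score) and Zfp27 63.2 (164.3). Zfp217, whose human counterpart works with histone-modifying corepressors, scored 122.2, Zfp952 87.4 and Zfp987 80.9, with no depleted region at their ends. At Zfp777 and Zfp217 a wild-type region overlapped the triple-knockout region and missed the 1000 bp limit, at 1018 and 1011 bp from the gene end, so 4 of the 6 had no overlapping wild-type region. In wild type only, Zfp647 scored 195.4 (227.0 in depleted cells), Zfp9 136.4 (117.8) and Zfp616 116.9 (64.9). Zfp574, Zfp457, Zfp993 and Zfp341, whose human counterpart activates the STAT3 gene, scored 91.8, 75.4, 73.4 and 65.1 there, and no wild-type region at these 7 genes overlapped a triple-knockout region. Zfp777 and Zfp9 lie on chromosome 6, where the triple-knockout list held 0.824 regions for each wild-type region, beside 1.05 over all chromosomes. That ratio was 0.765 on chromosome 8 and 1.42 on chromosome 3, and between 0.995 and 1.16 on the other autosomes and X.

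A region in both H1 lists and none in the depleted list was found at 8 genes. Zfp266 scored 194.7 in wild-type and 167.2 in triple-knockout cells, and Zfp105 scored 152.7 and 210.5, both with regions over the annotated start. Zfp697 (104.2 and 142.3), Zfp953 (82.5 and 103.4) and Zfp764 (80.1 and 133.6) were next. Zfp469, whose human counterpart is tied to brittle cornea syndrome, scored 78.3 and 55.6. Zfp383 scored 75.4 and 50.2, and Zfp981 scored 54.8 and 51.9. Some of these lie at the floor of their list. The triple-knockout regions of Zfp383, Zfp981 and Zfp469 stood above only 0.0706%, 0.563% and 1.95% of that list. The wild-type region of Zfp981 stood above 1.9% of its list. The missing control region is what chose these genes.

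Many of the genes were open in control cells at another start. RefSeq's promoter table holds 1 or more starts for 65 members, some of them deep inside the annotated gene. At 18 of the 65 (27.7%, interval 17.3 to 40.2) the control list held a region overlapping the 300 bases around such an inner start (250 before and 50 after it), beside 686 of 8126 genes without a gene-end control region (8.44%). Of the 47 genes with no gene-end region in any list, 15 were among the 18. At table starts of these genes the depleted list held a region at 18 of 18 genes, and wild type and triple knockout at 17 each, missing Zfp759 and Zfp217 respectively. Over all 686 genes with a control region at such a start the shares were 91.4%, 84.0% and 84.3%. Control scores ran from 67.6 to 394.6, with a median of 168.5. At these 18 genes the control list thus lacked a region at the outermost annotated ends and held one at a start inside.

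The plot of inner starts gives their scores. Zfp445, which guards the methylation of imprinted genes, had no gene-end region in any list, but 20.84 kb inside the gene its table start scored 151.9 in control, 114.2 in depleted, 186.9 in wild-type and 234.8 in triple-knockout cells. Zfp708, which binds a family of retrotransposons, had one 16.43 kb inside with scores of 185.9, 489.2, 353.9 and 233.3. Zfp558 had the highest control score, 394.6, at a start 4.74 kb inside, beside 348.5, 706.4 and 417.1. Zfp341 scored 331.3, 553.6, 82.9 and 369.6 at a start 1.55 kb inside. The other 14 genes were Zfp46, Zfp59, Zfp61, Zfp217, Zfp229, Zfp428, Zfp595, Zfp759, Zfp790, Zfp791, Zfp821, Zfp976, Zfp981 and Zfp984.

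**Figure D3:**
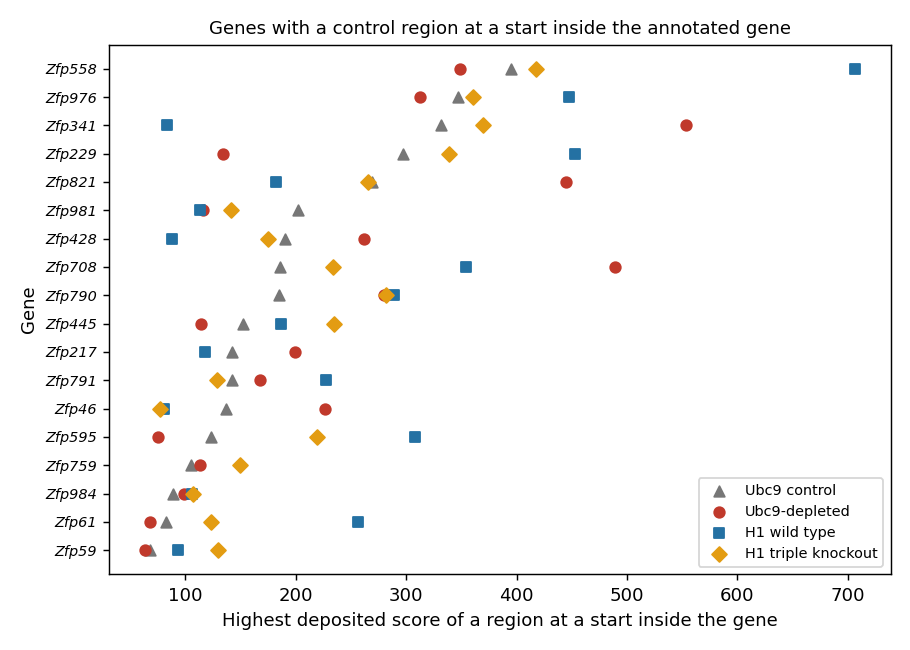
For each of the 18 genes with a control region at a start inside the annotated gene, points give the highest deposited score (no unit) of a region overlapping the 300 bases around a table start in each of the 4 lists. All 18 have a control and a depleted point, and only Zfp759 lacks a wild-type and Zfp217 a triple-knockout point; scores are not compared between lists.

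Without the 18 genes, 67 members were left. Of these, 23 had a depleted gene-end region (34.3%, interval 23.2 to 46.9), 18 a wild-type region (26.9%, interval 16.8 to 39.1) and 17 a triple-knockout region (25.4%, interval 15.5 to 37.5). Genes in general without a control region at a gene end or table start stood at 11.5%, 8.48% and 8.51% of 9582. No gene-end region in any list was left at 32 of the 67 (47.8%). At 23 of the 32 the table has a start and no list held a region there, and the other 9 have no table start.

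The surroundings of these 32 genes held regions in many cases. In a span reaching 10 kb beyond both ends, 21 had a control region, 23 a depleted region, 19 a wild-type region and 21 a triple-knockout region, and 16 (50.0%) had one in all 4 lists. Over the 7714 protein-coding genes in the same state, 40.8%, 45.0%, 42.4% and 44.0% had one in these lists and 28.0% in all 4. Those genes are shorter, with a median of 8016 bp beside 20563 bp, so their spans are shorter too. In 5 of them the span was empty in every list: Zfp11, Zfp366, Zfp474, Zfp641 and Zfp652, with gene lengths between 10.9 kb (Zfp641) and 62.2 kb (Zfp366). They were named after their values were seen.

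By genomic position, the genes were spread over many of the Zfp clusters, but unevenly. Clusters were taken as runs of at least 3 Zfp genes with gaps of at most 500 kb. There were 33 of them with 224 Zfp genes, and 24 held a member, 13 of these exactly 1. Of the members, 50 (58.8%, interval 47.6 to 69.4) lay in clusters, as did 168 of the 275 Zfp genes with a control region (61.1%, interval 55.1 to 66.9). Within clusters 12 of 50 had a depleted region, 13 a wild-type and 14 a triple-knockout region, and outside them 11, 7 and 5 of 35 did. No region in any list was found at 27 of 50 and 20 of 35.

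**Figure D4:**
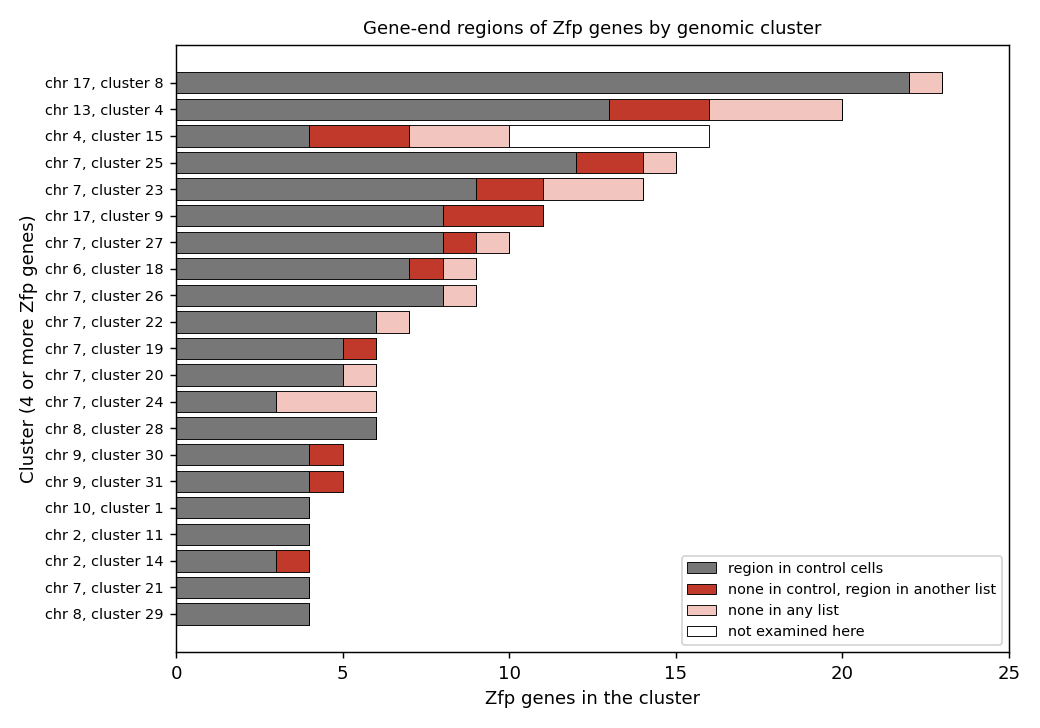
Bars give the number of Zfp genes in each cluster of at least 4, split by gene-end regions: in control cells, only in another list, in none of the 4 lists, or left out by the rule. The longest bar, on chromosome 17, has 23 genes and 1 member, and the chromosome 4 cluster has 4 of 16 genes with a control region.

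Of the 3 clusters with at least 4 members, the one with most was on chromosome 13 (chr13:66670274-67827000, 20 Zfp genes, 7 members). It holds Zfp708, Zfp759, Zfp455, Zfp457, Zfp595, Zfp953 and Zfp459, of which 1 had a depleted, 2 a wild-type and 1 a triple-knockout region, and 4 had none at their ends. The depleted region was that of Zfp455. Zfp457 is known as a regulator of sex-limited liver genes, and its wild-type region scored 75.4. The cluster on chromosome 4 (chr4:145510759-147849126) had the lowest share of control regions of the 33: 4 of its 16 Zfp genes had one, 6 were members and 6 were left out by the rule. Its members Zfp990, Zfp987, Zfp981, Zfp993, Zfp534 and Zfp984 had 0 depleted, 2 wild-type and 2 triple-knockout regions at their ends. Over all 16 Zfp genes of the cluster, 10 had a depleted, 7 a wild-type and 10 a triple-knockout region. Each of the 6 left-out genes had a depleted region, so the 0 describes only the genes that the rule kept. Among the members, the triple-knockout regions were those of Zfp987 (80.9) and Zfp981 (51.9, near the lowest score of that list, 50.01). Zfp534 and Zfp987 each share 58.5% of the 36-base words of their promoters with another gene's promoter, so that reads there may be assigned to either.

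The third such cluster lies on chromosome 7 (chr7:24081877-25227876, 14 Zfp genes). Its members Zfp235, Zfp61, Zfp428, Zfp575 and Zfp574 had 1 depleted region, at Zfp575, 1 wild-type region and 0 triple-knockout regions. A neighbouring run (chr7:27731409-28379228) had 3 members of 6 genes, Zfp59, Zfp974 and Zfp850, with no gene-end region in any list. The reverse held on chromosome 17 (chr17:32765496-33631716), where all 3 members of 11 genes, Zfp952, Zfp563 and Zfp101, had a triple-knockout region and 2 each had a depleted and a wild-type region. The largest cluster, also on that chromosome (chr17:21008941-23599755), had 1 member among 23 genes, Zfp229, which was open at an inner start. On chromosome 15 (chr15:76852131-76925693) both members, Zfp251 and Zfp647, had a depleted region.

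Of 5 members with developmental roles, 4 had no gene-end region in any list, a share like the 80.6% of all genes without a control region. These are Zfp423, which acts in neural and fat cell development, Zfp503, needed in the striatum, Zfp536, a brake on neural differentiation, and Zfp831, whereas Zfp541 had a depleted one. Zfp423 nevertheless held 5 control, 3 depleted, 9 wild-type and 5 triple-knockout regions inside its 300.0 kb, and Zfp536 held 6, 5, 5 and 7 inside 456 kb. Of all 12 developmental Zfp genes listed, 6 had a gene-end region in the control list, 6 in the depleted list and 4 in each H1 list. Of 9 Zfp genes with described targets, 6 had one in the control list, and the other 3 are Zfp445, Zfp708 and Zfp457. Over all 367 Zfp genes the shares were 74.9%, 79.3%, 75.5% and 75.2% in the control, depleted, wild-type and triple-knockout lists.

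In CpG content the starts of these genes stood nearer to other Zfp genes than to genes without a control region in general. The median ratio of observed to expected CpG in the 300 bases around the start was 0.57 for the 65 members in the table, 0.63 for Zfp genes with a control region at a start and 0.21 for all genes without a control region at an end or start (n = 7440). It was 0.61 for the 18 with an open inner start, 0.50 for the 21 with a start region in other lists only, and 0.56 for the 26 with none. The start nearest the annotated one was scored, which at 3 of the 18 (Zfp46, Zfp708 and Zfp791) is not the open start. The plot of CpG ratios shows that these 3 groups overlap over nearly their whole range. A ratio of at least 0.6 was found in 49.2% of members and 15.8% of the 7440 genes. Over all genes in the promoter table the median was 0.58 and the share 48.4%, so the members were like genes in general. The 7440 genes have no control region at a start. For the 47 members in that state the median was 0.56 and the share 46.8%.

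**Figure D5:**
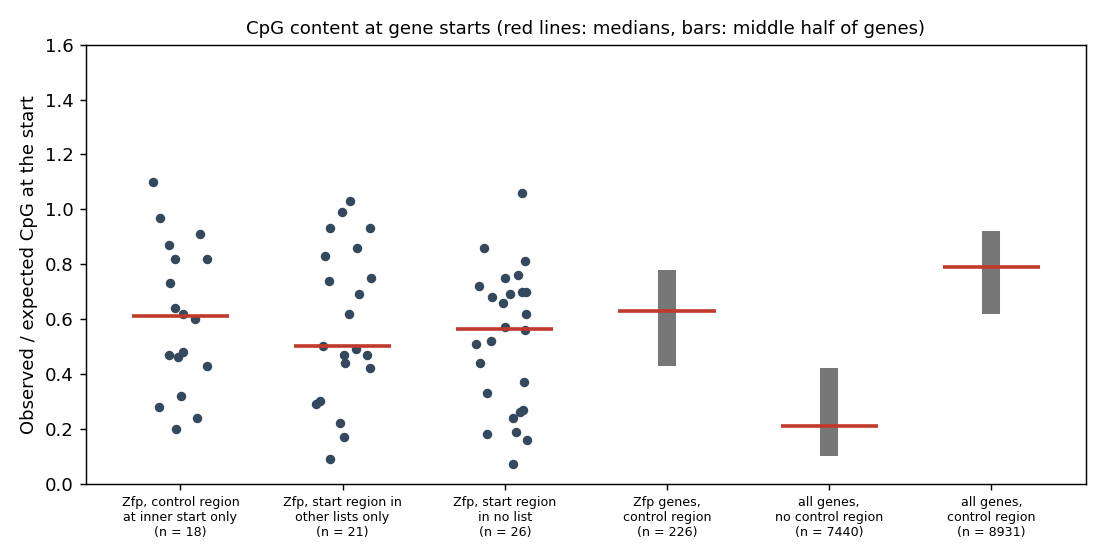
Points give the ratio of observed to expected CpG (no unit) at the start of each member in the promoter table, by where its start regions were, with medians as red lines; grey bars span the middle 50% of 3 larger sets of genes. The members' medians of 0.50 to 0.61 stand between those of all genes without (0.21) and with (0.79) a control region.

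Motif matches differed among the members, as a description of letters and not of binding. The starts are those scored for CpG, so at 3 of the 18 genes with an open inner start the open one was not used. CCAAT, on either strand, was found at 10 of 18 genes with an open inner start (55.6%), 10 of 21 with a start region in other lists only (47.6%) and 4 of 26 with none (15.4%), beside 36.8% of the 8126 genes without a control region at their ends, 39.2% of all genes in the table and 54.4% of Zfp genes with a control region. ATGGCGG was found in 0 of 65 members, beside 2.25% of genes without a control region, 11.5% of Zfp genes with one and 5.43% of all genes. GGGCGG was found in 30.8% of members, 23.6% of genes without a control region, 47.8% of Zfp genes with one and 46.3% of all genes. In members, genes without a control region and all genes, the shares were 7.69%, 20.8% and 13.3% for TATAAA and 7.69%, 1.11% and 2.33% for TGACGTCA. They were 16.9%, 4.90% and 11.9% for CCGGAAG, and 6.15%, 1.59% and 3.60% for GCGCATGC. A 36-base word shared with another gene's promoter was found in 12 members (18.5%), beside 22.2% of genes without a control region and 18.8% of all genes.

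At the limit of the rule, the members with the nearest control regions were Zfp503 (1004 bp away), Zfp41 (1026), Zfp428 (1037), Zfp574 (1041), Zfp369 (1076) and Zfp777 (1145). Just inside it, and so not members, were Zfp688 (993 bp), Zfp787 (978), Zfp516 (950), Zfp239 (923), Zfp451 (895) and Zfp52 (808). A control region came within 2000 bp of 20 members, within 5000 bp of 35 and within 10000 bp of 54, with a median distance of 6395 bp. The limit also bears on the 32 genes left with no gene-end region in any list. At Zfp41, Zfp369, Zfp446, Zfp503 and Zfp583 among them, the nearest region of every list lay between 1004 and 1469 bp from a gene end. Of these, Zfp41, Zfp369 and Zfp446 have no table start, so an open start could not be looked for there.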

How the data were processed

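ATAC-seq was done on 8 samples in 4 groups of 2 replicates, with 50000 cells a reaction and 12 PCR cycles, per the labels' protocols. Per the submitters' processing notes, CASAVA 1.8.2, Bowtie2, Picard and MACS 1.4.2-1 were used with mm10; aligner settings, read shifting and how replicates were combined are not given in the sources used here. Each list gives positions and a score per region as the authors deposited them, with 46847 to 58039 regions a list. Read depth is unknown, and the number of regions grows with it.

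Genes came from a RefSeq table for GRCm38.p6 and starts, strands and sequences from its promoter table, which matched 65 of the 85 genes (a region at a table start overlaps its 300 bases); protein sequences are not analysed here. A region was assigned to a gene when it overlapped, by at least 1 bp, the 1000 bp on either side of a gene end. Counts were made with Python 3.11.15, pandas 2.3.3 and scipy 1.17.1. The members, gene lists and naming rule were chosen with earlier results of these data known: up to 8 genes open in all 3 other lists, up to 8 in depleted cells only, up to 6 in each further H1 pattern, the highest score in each cluster with at least 4 members, and members of the lists of described roles; others named were chosen after their values were seen. The overlap step was tested on simulated data, with 0 of 1200 windows and 0 of 208 cluster genes wrong. Alternatives were other windows, scores, overlaps, cluster gaps, equal list sizes, fewer chromosomes and starts only.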

Additional observations from a re-analysis of the deposited data

How the results depend on the processing

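Windows, scores and overlaps were changed with the members chosen again, giving 61 (2500 bp) to 119 (score of at least 100) members against 85. The share with a depleted region was 39.3% with windows of 2500 bp, against 27.1% and a share of all genes without a control region that rose from 11.3% to 14.4%, and otherwise 21.5% to 34.3%. Wild-type shares ran from 16.7% to 29.5% and triple-knockout shares from 15.6% to 31.1%, and both stayed above those of all such genes under the 4 settings of window, score and overlap. The difference of triple-knockout only minus wild-type only members was -1 and took values from -4 to 6. The share in clusters was 45.9% with gaps of at most 200 kb and 63.5% with 1000 kb, against 58.8%. Leaving out the 18 genes with an open inner start, and the receptor genes from the comparison, was chosen after seeing the data. No paired analysis was possible because the 2 replicates of a group share 1 list, and for the same reason no replicate could be left out. Depth per list is unknown and limits every count of missing regions.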

Other observations

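Zkscan and Zscan genes are relatives of the Zfp genes that carry a SCAN domain. Of 22 such genes, with the Zscan4 genes set aside, 15 had a control region at a gene end (68.2%, interval 45.1 to 86.1). That interval holds the shares of all protein-coding genes (53.1%) and of all Zfp genes (74.9%). Of the other 7, 1 had a depleted, 1 a wild-type and 0 a triple-knockout region. Over all genes without a control region these shares were 11.3%, 8.42% and 8.49%.

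Gene bodies of the members differed widely in length, from 2286 to 478623 bp with a median of 20748 bp. The longest, Zfp993, spans other genes in the annotation and alone held 15 of the 96 control regions inside members, 13 of the 106 depleted, 23 of the 137 wild-type and 17 of the 135 triple-knockout regions. The rule bars control regions from the ends of these genes, so the control count is not set against the others.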
